A study of Mus musculus with 8 samples.

Results

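The genes described here are 49 mouse genes of the interferon response and of class I antigen presentation, followed in fibroblasts lacking Gadd45a, Ing1 or both. The set was named gene by gene: 32 antiviral effectors and other interferon-induced genes, 7 sensors and transcription factors, and 10 genes of class I presentation. These genes were chosen with earlier results of these data known. The shares over all probes or genes printed beside their counts are therefore a scale for reading, not an independent test. All probes annotated to a member were taken, under older or newer symbols, and a probe was kept when its detection p was under 0.01 on both arrays of at least 1 genotype. Of the 49 genes, 48 had a probe, with 99 probes in all, and 31 genes had a kept probe, with 45 kept probes. The whole series held 45281 probes, of which 14867 were kept, standing for 8655 named genes.

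The study hybridized biotin-labelled RNA to Illumina expression BeadArrays, with 2 arrays for each of 4 genotypes: double knockout for Ing1 and Gadd45a (DKO), Gadd45a-/-, Ing1-/- and wild type (WT). Mouse embryonic fibroblasts (MEFs), primary connective tissue cells grown from the embryo body, came from male C57BL/6 embryos at stage E15.5 and were collected as confluent cultures at passage 3; no inducer of interferon is named in the labels. The design text gives duplicates per MEF line, so the genotype cannot be told apart from the line it was grown from, and the p-values cover array-to-array spread alone, which may be technical. Ing1 is a chromatin reader that binds a methylated histone mark, and Gadd45a is a stress-induced adaptor protein linked to DNA repair and DNA demethylation.

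Probes above background numbered 14277 to 14778 per array, and arrays of the same genotype correlated at 0.988 to 0.994 over the kept probes, against 0.980 to 0.990 between genotypes. Genotype names are those of the labels. The probes of the targeted genes did not show the labelled losses: Gadd45a probe ILMN_2742152 averaged 11.74 ± 0.08 on arrays labelled DKO, 11.82 ± 0.02 on arrays labelled Gadd45a-/-, 10.13 ± 0.02 on arrays labelled Ing1-/- and 10.82 ± 0.16 on arrays labelled WT (log2 normalized intensity, SD, n = 2). The single Ing1 probe was not above background on any of the 8 arrays. The sources used here do not say where these probes lie relative to the deleted parts, so every direction below is between arrays as labelled. None of the 49 genes lies within 25 Mb of Ing1 on chromosome 8 or of Gadd45a on chromosome 6.

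Interferons are secreted proteins, and cells release those of type I when they sense viral nucleic acid. Type I interferons act through a complex of STAT proteins with Irf9 that binds the interferon-stimulated response element, and interferon gamma through STAT dimers that bind the gamma-activated site. Their target genes include direct antiviral effectors and the machinery that cuts, transports and displays peptides on class I molecules, and unstimulated fibroblasts keep a low tonic level of many of them.

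Promoters were taken from RefSeq (GRCm38.p6), as 250 bases before to 50 bases after each start, a length of 300 bases. They are shown for 5 members: Isg15, Gbp2 and Ifit3, effectors with lower signal on DKO arrays, Psmb8, a class I member with lower signal there, and B2m, a class I member with no called change. Capitals mark the core of the interferon-stimulated response element, GAAANNGAAA or its reverse complement TTTCNNTTTC, or in Psmb8 the gamma-activated site, TTCNNNGAA; each sequence is written 5′ to 3′ on the gene's strand.

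Isg15, chr4:156200769-156201068, minus strand: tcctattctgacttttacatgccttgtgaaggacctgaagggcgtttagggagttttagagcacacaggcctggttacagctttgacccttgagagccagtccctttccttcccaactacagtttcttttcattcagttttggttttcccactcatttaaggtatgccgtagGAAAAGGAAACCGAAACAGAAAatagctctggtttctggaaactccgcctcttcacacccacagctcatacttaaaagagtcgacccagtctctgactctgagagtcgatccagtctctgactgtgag

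Gbp2, chr3:142620413-142620712, plus strand: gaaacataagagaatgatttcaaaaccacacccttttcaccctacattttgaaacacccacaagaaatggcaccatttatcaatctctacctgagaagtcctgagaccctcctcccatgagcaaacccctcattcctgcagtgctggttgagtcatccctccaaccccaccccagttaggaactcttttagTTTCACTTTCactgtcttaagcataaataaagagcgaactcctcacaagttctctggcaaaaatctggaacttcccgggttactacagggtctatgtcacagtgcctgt

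Ifit3, chr19:34583279-34583578, plus strand: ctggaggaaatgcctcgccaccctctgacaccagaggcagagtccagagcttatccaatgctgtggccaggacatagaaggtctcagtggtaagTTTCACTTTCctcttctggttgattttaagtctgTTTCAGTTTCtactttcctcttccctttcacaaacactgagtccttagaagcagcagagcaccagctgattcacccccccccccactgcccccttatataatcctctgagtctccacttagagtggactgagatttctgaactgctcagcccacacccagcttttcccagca

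Psmb8, chr17:34197945-34198244, plus strand: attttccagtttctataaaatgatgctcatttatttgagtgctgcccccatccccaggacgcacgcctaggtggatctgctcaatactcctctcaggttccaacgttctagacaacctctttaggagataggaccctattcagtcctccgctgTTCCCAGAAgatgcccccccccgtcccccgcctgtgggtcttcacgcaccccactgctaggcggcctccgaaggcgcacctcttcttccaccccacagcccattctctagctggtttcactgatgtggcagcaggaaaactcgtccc

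B2m, chr2:122147437-122147736, plus strand: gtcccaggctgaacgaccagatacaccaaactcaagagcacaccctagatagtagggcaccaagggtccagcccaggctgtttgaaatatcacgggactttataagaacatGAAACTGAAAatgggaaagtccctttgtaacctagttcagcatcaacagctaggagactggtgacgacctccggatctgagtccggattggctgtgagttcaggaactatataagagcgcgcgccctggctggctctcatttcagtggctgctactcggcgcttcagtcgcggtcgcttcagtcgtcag

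The Isg15 window held 3 overlapping matches, the first 78 bases before the start, and the Gbp2 match lay 59 bases before it. The first of 2 matches in Ifit3 lay 156 bases before the start, the match in B2m 139 bases, and the gamma-activated site match in Psmb8 97 bases. Searched on both strands, the response element core was in 1131 of 32851 RefSeq promoters, 3.44%. The 37 members with an entry had 44 promoters, and the core was in 18 of these, 40.9%, belonging to 18 members. The gamma-activated site, which reads the same on both strands, was in 2726 promoters, 8.30%, and in those of 11 of the 37 members. A match describes letters in this window, not a binding site in use. Of the 12 members called lower in DKO arrays below, 10 had an entry and 4 of these held the response element core (Gbp2, Ifit3, Isg15 and Stat2), beside 9 of 17 with an entry among the other members with a kept probe; the shares were not tested.

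In arrays labelled DKO, 13 of the 45 kept member probes, of 12 genes, were lower than in WT arrays at an adjusted p under 0.05, and 1 was higher, in a limma fit over all 14867 kept probes with Benjamini-Hochberg adjustment. Over all kept probes 1.95% were called lower and 1.85% higher. The members were chosen with earlier results of these data known, so this comparison is no independent test. The 12 genes were the effectors Isg15, Shfl, Parp14, Oasl2, Gbp2, Ifit3, Trim25 and Ifitm1, the factors Irf9 and Stat2, and the class I genes Psmb8 and H2-D1. The fall ranged from a log2 change of -0.61 in Trim25 to a fitted -1.65 in Parp14. Arrays of the 2 genotypes did not overlap, with DKO lower, at 33 of the 45 probes, or 73.3%, against 22.1% of all kept probes. The 33 include probes that passed the filter only through WT. Among the 32 member probes above background on every array, the 2 genotypes did not overlap, with DKO lower, at 23. With arrays scaled by their median in place of quantile normalization, the calls over all probes were 362 lower and 126 higher, against 290 and 275 with quantile normalization, and the member calls were 15 lower and 0 higher.

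By role, 8 of 26 effector probes, 2 of 7 probes of sensors and factors and 3 of 12 class I probes were called lower. With each gene taken at its brightest kept probe, 28 of the 31 genes had a log2 change below 0, with a median of -0.61, against 47.8% below 0 and a median of 0.01 over 8655 genes. All 31 of these probes were above background on both WT arrays and 25 on each DKO array, so genes that pass only through WT count toward this. Among the 32 member probes above background on all 8 arrays the median was -0.40, and 11 were called lower in the fit over all kept probes. A separate fit restricted to the 12946 probes above background on all 8 arrays called 12 of the 32 lower, against 1.93% of those 12946.

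**Figure D1:**
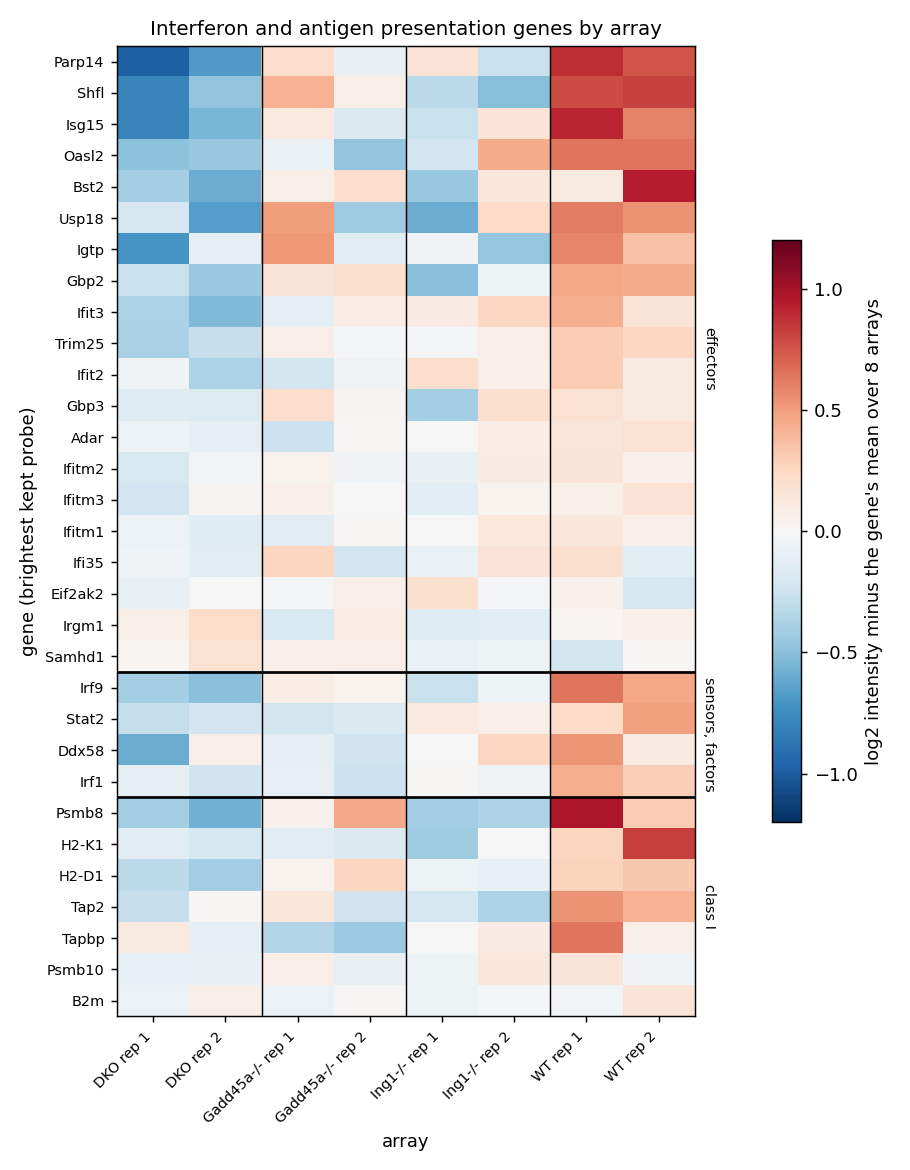
Log2 intensity of the 31 member genes with a kept probe (rows, grouped by role) on the 8 arrays (columns, 2 per genotype), as the difference from each gene's mean over the 8 arrays. WT had the highest mean in 27 of the 31 genes and DKO the lowest in 22, against 25.3% and 27.6% of 8655 genes. Some of these probes passed the filter only through arrays other than DKO. Those of Usp18, Gbp3 and Igtp passed only through WT and count toward both numbers.

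Isg15, a ubiquitin-like protein that is conjugated to other proteins during the interferon response, had 6.92 and 7.16 on DKO arrays, 7.82 and 7.53 on Gadd45a-/- arrays, 7.44 and 7.87 on Ing1-/- arrays and 8.62 and 8.30 on WT arrays (log2 normalized intensity, as for all values by array below). WT was above and DKO below both single knockouts, whose arrays overlapped each other. Its log2 change between DKO and WT arrays was -1.42 ± 0.19 (SE; limma adjusted p = 0.0080).

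Shfl, a protein that blocks programmed ribosomal frameshifting in viral messages, had 7.39 and 7.71 on DKO arrays, 8.61 and 8.26 on Gadd45a-/- arrays, 7.86 and 7.68 on Ing1-/- arrays and 8.97 and 9.01 on WT arrays. The Ing1-/- arrays lay close to the DKO arrays and overlapped them, and the Gadd45a-/- arrays lay between them and WT. The change between DKO and WT was -1.44 ± 0.16 (SE; limma adjusted p = 0.0040).

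Parp14, an ADP-ribosyltransferase induced by interferon, had 5.16 and 5.46 on DKO arrays, 6.35 and 6.05 on Gadd45a-/- arrays, 6.30 and 5.88 on Ing1-/- arrays and 7.03 and 6.90 on WT arrays. It was not well above background on either DKO array, so its level there is a bound. It was at least 2.03-fold lower in DKO than in WT (limma adjusted p = 0.0040); this bound sets the mean of the WT arrays against the lowest signal that counts as above background on each DKO array, or the probe's own signal where that is higher.

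Gbp2, an interferon-inducible guanylate-binding GTPase that acts on vacuoles holding pathogens, had 6.95 and 6.78 on DKO arrays, 7.38 and 7.41 on Gadd45a-/- arrays, 6.72 and 7.16 on Ing1-/- arrays and 7.68 and 7.66 on WT arrays. Both WT arrays stood above the other 6, and DKO and Ing1-/- arrays overlapped. The change between DKO and WT was -0.81 ± 0.16 (SE; limma adjusted p = 0.0353).

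Oasl2, a member of the oligoadenylate synthetase family, had 6.07 and 6.10 on DKO arrays, 6.48 and 6.08 on Gadd45a-/- arrays, 6.33 and 7.01 on Ing1-/- arrays and 7.20 on both WT arrays. The Ing1-/- arrays differed from each other by more than the others did. Ifit3, which with its relatives forms complexes that bind viral RNA, had 6.27 and 6.12 on DKO arrays, 6.55 and 6.74 on Gadd45a-/- arrays, 6.75 and 6.90 on Ing1-/- arrays and 7.08 and 6.81 on WT arrays. Here the DKO arrays stood below all others, while the Ing1-/- and WT arrays overlapped. The changes between DKO and WT were -1.12 ± 0.22 in Oasl2 (limma adjusted p = 0.0372) and -0.75 ± 0.14 in Ifit3 (limma adjusted p = 0.0309; SE in both).

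Trim25, the ubiquitin ligase that activates the RNA sensor encoded by Ddx58, had 9.14 and 9.25 on DKO arrays, 9.61 and 9.50 on Gadd45a-/- arrays, 9.50 and 9.61 on Ing1-/- arrays and 9.83 and 9.78 on WT arrays. The single knockouts held the same middle range, and neither DKO nor WT arrays overlapped them. The change between DKO and WT was -0.61 ± 0.11 (SE; limma adjusted p = 0.0288).

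The probes disagreed for 2 effectors. Ifitm1, one of the membrane proteins that hinder viral fusion, had 7.34 and 7.37 on DKO arrays, 7.18 and 7.03 on Gadd45a-/- arrays, 8.00 and 8.14 on Ing1-/- arrays and 8.11 and 8.43 on WT arrays at its dimmer probe ILMN_1214071. DKO and Gadd45a-/- arrays stood below all Ing1-/- and WT arrays, and the probe's change between DKO and WT was -0.92 ± 0.14 (SE; limma adjusted p = 0.0132). Its brighter probe ILMN_1217180 had 13.60 and 13.52 on DKO arrays against 13.81 and 13.74 on WT arrays, a change of -0.21 that was not called (limma adjusted p = 0.456). Samhd1, a phosphohydrolase that depletes nucleotides needed by viruses, had 6.32 and 6.40 on DKO arrays, 6.19 and 6.14 on Gadd45a-/- arrays, 5.47 and 5.56 on Ing1-/- arrays and 5.91 and 5.69 on WT arrays at its dimmer probe ILMN_1232707. It was the only kept member probe called higher in DKO, at least 1.34-fold, with WT not well above background (limma adjusted p = 0.0487). At the brighter probe ILMN_1221736 DKO arrays had 9.33 and 9.49 and WT arrays 9.09 and 9.32, a change of 0.20 (limma adjusted p = 0.508).

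Several effectors showed no called change. Ifitm2 and Ifitm3, close relatives of Ifitm1, had 12.85 and 13.01, and 13.12 and 13.38, on DKO arrays, against 13.20 and 13.11, and 13.42 and 13.52, on WT arrays. Eif2ak2, the kinase that halts translation on double-stranded RNA, had 9.05 and 9.13 on DKO arrays and 9.19 and 8.94 on WT arrays, which overlapped. Bst2, which tethers budding virions to the cell surface, had 7.05 and 6.86 on DKO arrays and 7.57 and 8.40 on WT arrays; the WT arrays were far apart, and its change of -1.03 ± 0.28 was not called (SE; limma adjusted p = 0.111). Usp18, the protease that removes Isg15 from its targets, had 5.65 and 5.18 on DKO arrays, neither well above background, and 6.46 and 6.39 on WT arrays (limma adjusted p = 0.204). Ifi35, Ifit2, Gbp3, Igtp, Irgm1 and Adar were not called at any kept probe. The other 12 effectors had no kept probe: Ifit1, Oas1a, Oas2, Mx1, Mx2, Rsad2, Iigp1, Cxcl10, Parp9, Rtp4 and Xaf1 were not above background on any array, and Ifi44 was not analysed here.

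**Figure D2:**
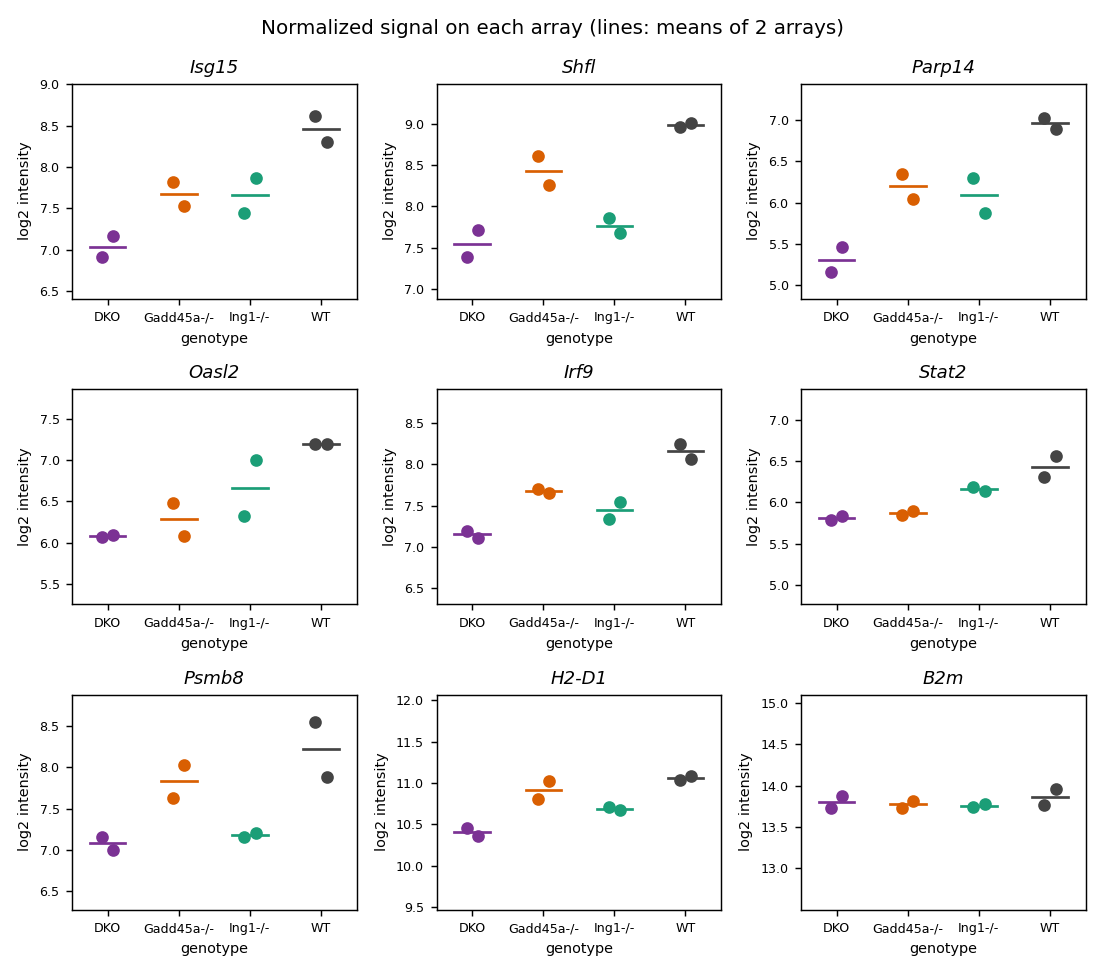
Log2 normalized intensity (vertical axes, a separate range for each gene) on each array of the 4 genotypes (horizontal axes), with lines at the means of 2 arrays, for member genes of the 3 roles. In Isg15 and Parp14 both WT arrays stood above, and both DKO arrays below, all arrays of the single knockouts.

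Among sensors and factors, Irf9, the DNA-binding subunit of the type I interferon transcription complex, had 7.20 and 7.11 on DKO arrays, 7.70 and 7.65 on Gadd45a-/- arrays, 7.34 and 7.55 on Ing1-/- arrays and 8.25 and 8.07 on WT arrays. Its 4 genotypes did not overlap and ran in the order WT, Gadd45a-/-, Ing1-/-, DKO. The change between DKO and WT was -1.003 ± 0.13 (SE; limma adjusted p = 0.0062). Stat2, the partner of Irf9 in that complex, had 5.78 and 5.83 on DKO arrays, 5.85 and 5.89 on Gadd45a-/- arrays, 6.19 and 6.14 on Ing1-/- arrays and 6.30 and 6.56 on WT arrays. It was not well above background on the DKO arrays and was at least 1.40-fold lower there than in WT (limma adjusted p = 0.0357).

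Irf1, a transcription factor induced by interferon gamma that acts on class I genes, had 10.10 and 9.97 on DKO arrays, 10.10 and 9.94 on Gadd45a-/- arrays, 10.22 and 10.16 on Ing1-/- arrays and 10.64 and 10.50 on WT arrays at its brightest probe. All 6 knockout arrays lay below both WT arrays, but the change between DKO and WT, -0.54 ± 0.12, was not called (SE; limma adjusted p = 0.0561), nor was it at the other 3 kept probes of the gene. Ddx58, the cytoplasmic sensor RIG-I, was not called. Irf7, Ifih1 and Dhx58, a factor and 2 further sensors of the pathway, were not above background on any array.

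In class I presentation, Psmb8, an interferon-inducible catalytic subunit of the immunoproteasome, had 7.16 and 7.01 on DKO arrays, 7.63 and 8.03 on Gadd45a-/- arrays, 7.16 and 7.21 on Ing1-/- arrays and 8.55 and 7.88 on WT arrays. DKO and Ing1-/- arrays shared the low level, and Gadd45a-/- overlapped WT. Its change between DKO and WT was -1.13 ± 0.23 (SE; limma adjusted p = 0.0370). H2-D1, a class I heavy chain, had 10.46 and 10.35 on DKO arrays, 10.81 and 11.03 on Gadd45a-/- arrays, 10.71 and 10.68 on Ing1-/- arrays and 11.04 and 11.09 on WT arrays at probe ILMN_2462745. The DKO arrays stood below all others, and the WT arrays above all others by a narrow margin. Its change there was -0.66 ± 0.12 (SE; limma adjusted p = 0.0259), and at probe ILMN_2476267 it was -0.71 ± 0.11 (SE; limma adjusted p = 0.0148). The third kept probe, ILMN_2944011, gave -0.75 ± 0.35 and was not called (SE; limma adjusted p = 0.366).

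B2m, the light chain shared by all class I molecules, had 13.73 and 13.88 on DKO arrays, 13.74 and 13.82 on Gadd45a-/- arrays, 13.74 and 13.77 on Ing1-/- arrays and 13.77 and 13.97 on WT arrays. Its arrays overlapped between all genotypes; the change between DKO and WT was -0.06, with a 95% interval of -0.35 to 0.22 (limma adjusted p = 0.865). H2-K1, the other heavy chain measured, had 8.22 and 8.13 on DKO arrays, 8.21 and 8.17 on Gadd45a-/- arrays, 7.92 and 8.34 on Ing1-/- arrays and 8.61 and 9.18 on WT arrays. All knockout arrays lay below both WT arrays, and no difference was called (limma adjusted p = 0.126 for DKO). Tap2, a subunit of the peptide transporter, had 7.59 and 7.87 on DKO arrays, 8.00 and 7.62 on Gadd45a-/- arrays, 7.66 and 7.49 on Ing1-/- arrays and 8.40 and 8.28 on WT arrays, again with every knockout array below WT and no call (limma adjusted p = 0.104 for DKO). Tapbp, the bridge between transporter and heavy chain, and Psmb10, a further immunoproteasome subunit, were not called. Tap1 and Nlrc5, the class I transactivator, were not above background on any array and Psmb9 on 1.

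The calls in DKO rested on both DKO arrays for most genes. Parp14 and Shfl kept their calls whichever of the 8 arrays was left out, with adjusted p up to 0.0408 and 0.0406. Isg15 lost its call only without DKO replicate 1 (adjusted p = 0.0758), and Irf9 without DKO replicate 1 (0.0503) or replicate 2 (0.0626). The other 9 probes called lower lost their calls without DKO replicate 1 or 2, with adjusted p between 0.101 and 0.211 without replicate 1 and between 0.0986 and 0.224 without replicate 2. Without WT replicate 1, 6 of the 13 calls were lost (adjusted p from 0.0910 to 0.140), and without WT replicate 2 also 6 (0.0585 to 0.114). Without Ing1-/- replicate 1 or 2 the losses were 5 (0.0509 to 0.0684), and without Gadd45a-/- replicate 1 or 2 they were 2 (0.0613 to 0.0629). Samhd1 lost its call without any one of the 8 arrays (adjusted p from 0.0746 to 0.271). Every one of these probes kept its direction.

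**Figure D3:**
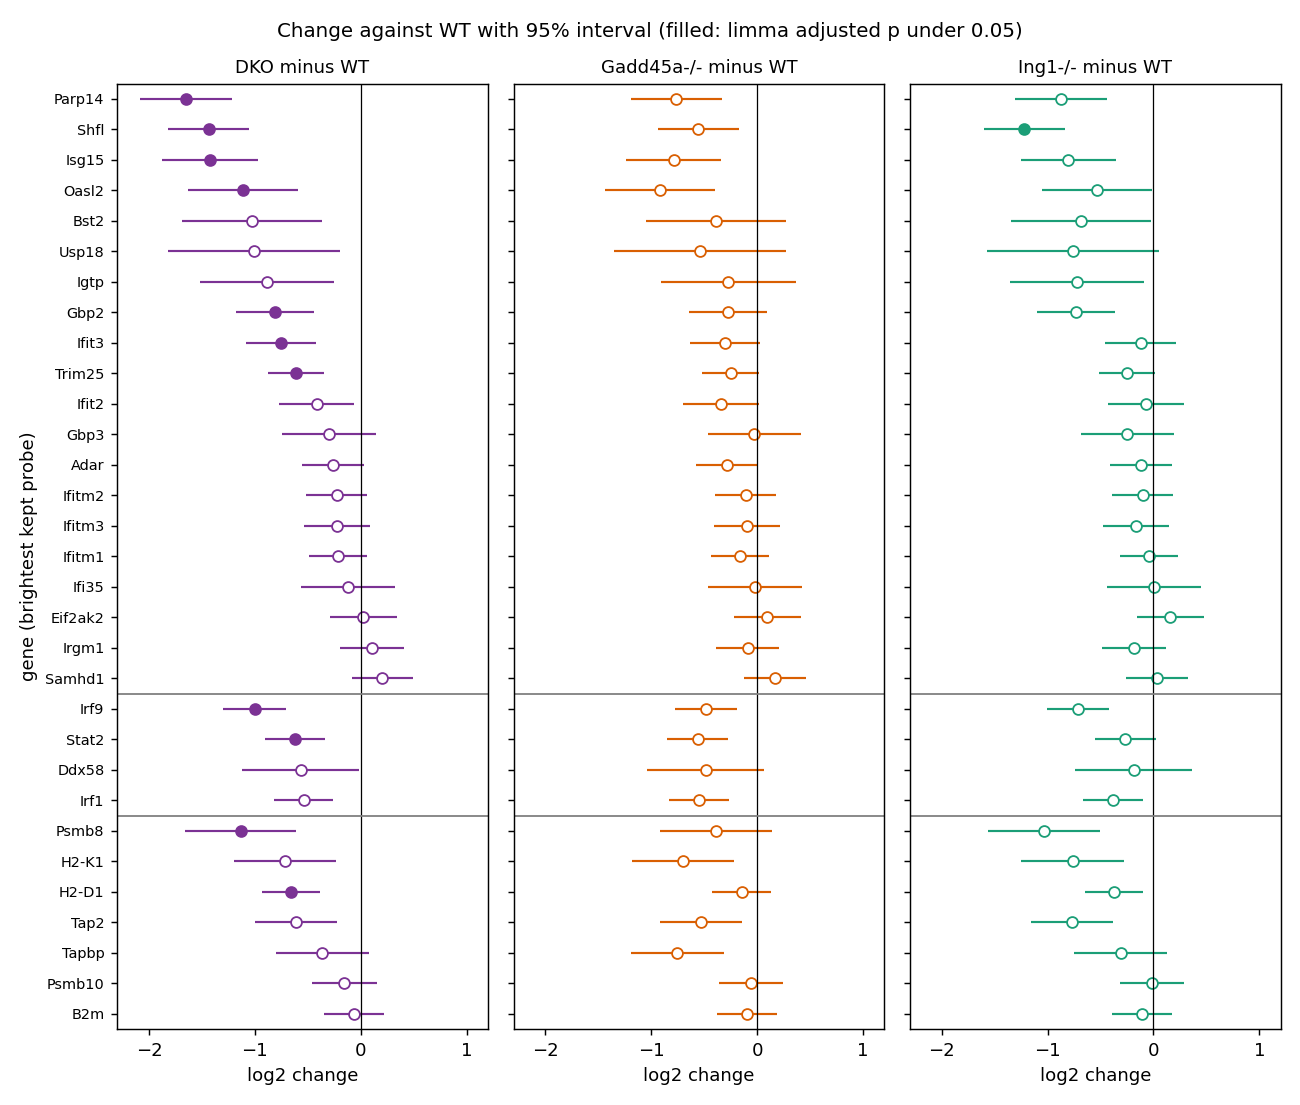
Log2 change against WT (horizontal axes) of the 31 member genes at their brightest kept probe (vertical axis) in DKO, Gadd45a-/- and Ing1-/- arrays, with 95% intervals; filled points had a limma adjusted p under 0.05. Of the 31 genes, 28 lay below 0 in DKO, 29 in Gadd45a-/- and 28 in Ing1-/-, all against the same 2 WT arrays. The DKO values of Parp14, Stat2, Usp18, Gbp3 and Igtp rest on signal not well above background on either array. The same holds for Tapbp in Gadd45a-/- and Igtp in Ing1-/-.

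In arrays labelled Gadd45a-/-, 1 of the 45 kept member probes was called lower than in WT and none higher, against 0.404% called lower and 0.928% called higher over all kept probes. The probe was ILMN_1214071 of Ifitm1, with a log2 change of -1.17 ± 0.14 (SE; limma adjusted p = 0.0106). That call was lost without WT replicate 2 (adjusted p = 0.0501), Gadd45a-/- replicate 1 (0.0724) or Gadd45a-/- replicate 2 (0.0826). The next members by adjusted p were Stat2, above background on 1 of the 2 Gadd45a-/- arrays, with a change of -0.56 (0.0954), and Irf1, with -0.55 (0.0969). Arrays did not overlap, with Gadd45a-/- lower, at 27 of the 45 probes, or 60.0%, against 17.9% of all kept probes. The 27 include probes that passed the filter only through WT. Among the 32 member probes above background on every array, the arrays did not overlap, with Gadd45a-/- lower, at 19.

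In arrays labelled Ing1-/-, 1 of the 45 kept member probes was called lower than in WT and none higher, against 0.215% called lower and 0.202% called higher over all kept probes. The gene was Shfl, with a log2 change of -1.22 ± 0.16 (SE; limma adjusted p = 0.0309). Its call was lost without any one of the 8 arrays (adjusted p from 0.0524 to 0.183). The next were Irf9, with a change of -0.71 (0.0750), and several with adjusted p from 0.129, among them H2-D1 and Parp14, which was above background on 1 of the 2 Ing1-/- arrays. Arrays did not overlap, with Ing1-/- lower, at 23 of the 45 probes, against 17.3% of all kept probes. Probes that passed the filter only through WT count toward the 23. Of the 32 member probes above background on all 8 arrays, 16 did not overlap, with Ing1-/- lower. With median scaling the calls over all probes were 102 lower and 16 higher, against 32 and 30 with quantile normalization, and in Gadd45a-/- 89 and 82 against 60 and 138; 5 member probes were then called lower in Ing1-/- and 2 in Gadd45a-/-.

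With each gene at its brightest probe, the median log2 change was -0.30 in Gadd45a-/- and -0.27 in Ing1-/-, against 0.01 and 0.02 over 8655 genes. In Gadd45a-/- 16 of the 31 genes lay below the value that 10% of all genes fall under, in Ing1-/- 15 and in DKO 20. The 3 comparisons share the WT arrays, so these counts are not separate observations, and genes that passed the filter only through WT count toward them. Among the 32 probes above background on all 8 arrays the medians were -0.26 and -0.14, with 1 probe called lower in each. The fit restricted to the 12946 probes above background on all 8 arrays also called 1 in each, against 0.471% and 0.193% of those probes.

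**Figure D4:**
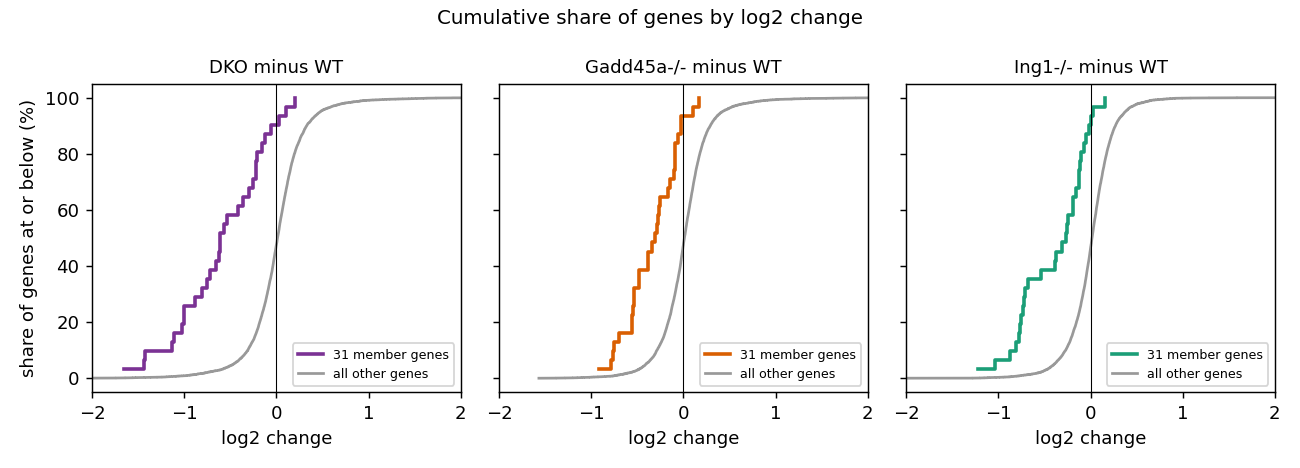
Cumulative share of genes (vertical axis, %) at or below each log2 change against WT (horizontal axis) in DKO, Gadd45a-/- and Ing1-/- arrays, for the 31 member genes and for all other named genes with a kept probe. The members' median was -0.61 in DKO, -0.30 in Gadd45a-/- and -0.27 in Ing1-/-, and that of all genes, members included, was within 0.02 of 0 in each.

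Loss of both genes was then set against loss of one. Between DKO and Gadd45a-/- arrays limma called none of the 45 member probes, against 0.39% of all kept probes called in either direction; at an unadjusted p under 0.05, 10 were lower and 0 higher, against 5.48% and 4.62% of all kept probes. Shfl came nearest, with a change of -0.88 ± 0.16 (SE; limma adjusted p = 0.0918), and Parp14, not well above background on the DKO arrays, was at least 1.196-fold lower there, with no call (limma adjusted p = 0.147). Between DKO and Ing1-/- arrays 1 probe was called, ILMN_1232707 of Samhd1, higher in DKO at least 1.38-fold (limma adjusted p = 0.0250), against 0.673% called higher and 0.437% called lower over all kept probes. At an unadjusted p under 0.05, 9 member probes were lower and 1 higher, against 5.82% and 5.85% of all kept probes. Of the 31 genes, 25 had a change below 0 against Gadd45a-/- and 26 against Ing1-/-, beside 51.5% and 52.3% of 8655 genes. Genes that passed the filter only through arrays other than DKO count toward these. The Samhd1 call was lost without any one of the DKO or Ing1-/- arrays (adjusted p from 0.128 to 0.198). Isg15 differed by -0.62 ± 0.19 there (limma adjusted p = 0.252), and Shfl by -0.22, with a 95% interval of -0.60 to 0.16.

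The interaction asks whether the change in DKO differs from the sum of the single knockouts' changes. limma called none of the 45 probes, against 0.148% of all kept probes, and at an unadjusted p under 0.05 it had 0 lower and 4 higher, against 4.5% and 4.86% of all kept probes. In Isg15 the change was -1.42 in DKO, -0.79 in Gadd45a-/- and -0.81 in Ing1-/-, and the interaction was 0.17, with a 95% interval of -0.47 to 0.80. In Irf9 the changes were -1.003, -0.48 and -0.71, with an interaction of 0.19 and an interval of -0.22 to 0.61. Tap2 and H2-K1, whose knockout arrays lay at 1 level, had interactions of 0.69 (interval 0.15 to 1.24, limma adjusted p = 0.454) and 0.75 (interval 0.07 to 1.43, limma adjusted p = 0.496). The intervals are wide, and a missed threshold does not show that the changes add.

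Genes of the pathway outside the set were followed in the same fit. Of 22 upstream signalling genes, among them the receptors Ifngr1 and Ifnar2, the kinases Jak1, Jak2, Tyk2 and Tbk1 and the adaptor Mavs, 16 had a kept probe and limma called none in any comparison; their medians were -0.16 in DKO, -0.14 in Gadd45a-/- and -0.0049 in Ing1-/-. At an unadjusted p under 0.05, 2 of the 16 were lower in DKO than in WT, 1 was lower and 1 higher in Ing1-/- than in WT, and none differed in Gadd45a-/-. The share of all kept probes at that unadjusted threshold is not given here, so these counts stand without a comparison. Ifnb1, which encodes interferon beta, was not above background on any array. Of 45 further interferon-induced genes, 17 had a kept probe. Over all kept probes, 1.95% were called lower than in WT in DKO and 0.215% in Ing1-/-. In DKO 3 fell: Irgm2, an immunity-related GTPase, at least 1.68-fold (limma adjusted p = 0.0042), Mlkl, the effector of necroptosis, by 0.97 on the log2 scale (limma adjusted p = 0.0079), and Uba7, the enzyme that activates Isg15, by 0.97 (limma adjusted p = 0.0381). Mlkl also fell in Ing1-/-, with a change of -0.99 (limma adjusted p = 0.0308), and Irgm2 was lower in DKO than in Gadd45a-/- (limma adjusted p = 0.0292) and in Ing1-/- (limma adjusted p = 0.0414).

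Of 13 further class I loading and proteasome genes, 10 had a kept probe and 1 was called: H2-T23, a nonclassical class I heavy chain, lower in DKO than in WT at all 3 of its probes, with changes of -0.91, -0.92 and -0.93. The constitutive proteasome subunit Psmb5 and the activator subunit Psme1 changed by -0.01 and -0.07 in DKO, with no call. Of 7 class II presentation genes only H2-DMa had a kept probe; Cd74, H2-Aa, H2-Ab1 and Ciita were not above background on any array. Class I heavy chains, guanylate-binding proteins and the Ifitm genes have close relatives, and the sources used here do not say how far their probes read such copies.

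Markers of cell types also differed between the genotypes. Of 16 markers of macrophages and blood cells 8 had a kept probe. By limma's adjusted p, 0 were called higher than in WT in DKO, 7 in Gadd45a-/- and 2 in Ing1-/-. Over all kept probes, 1.85%, 0.928% and 0.202% were called higher in these comparisons, and 1.95%, 0.404% and 0.215% lower. At an unadjusted p under 0.05, 0, 8 and 6 markers were higher, and 2 were lower in DKO. Shares of all kept probes at that unadjusted threshold are not given here for comparisons with WT. Against the single knockouts all 8 were lower in DKO at an unadjusted p under 0.05, beside 5.48% (Gadd45a-/-) and 5.82% (Ing1-/-) of all kept probes. Of the 8, 5 were called lower against Gadd45a-/-, beside 0.39% of all kept probes called in either direction. Against Ing1-/- 4 were called lower, beside 0.437%. In the interaction 6 were called lower, beside 0.148% called in either direction. Their summed normalized intensity was 1409 to 1471 on DKO arrays, 3075 to 3167 on Gadd45a-/- arrays, 2225 to 2489 on Ing1-/- arrays and 1583 to 1765 on WT arrays; Ptprc, Adgre1, Itgam, Aif1 and Tyrobp were not above background on any array. The DKO and WT arrays had the lower sums. Of the 8 markers 5 were above background on each DKO array, 8 on each single knockout array and 3 to 5 on WT arrays. Markers that passed the filter only through the single knockouts thus count toward the calls. All 10 fibroblast markers had a kept probe, and their sum was 81697 to 86108 on DKO arrays, 86495 to 92580 on Gadd45a-/- arrays, 96157 to 99084 on Ing1-/- arrays and 103922 to 104397 on WT arrays. Dcn and Lum, proteoglycans of the fibroblast matrix, were called lower in each knockout, Pdgfra in DKO and Col3a1 in Gadd45a-/-. Lum was above background on at most 3 of the 8 arrays. All 10 markers were above background on each WT array, 9 on each DKO and Ing1-/- array and 9 to 10 on Gadd45a-/- arrays. Of 6 epithelial markers 4 had a kept probe, with a summed intensity of 530 to 534 on DKO arrays, 413 to 438 on Gadd45a-/- arrays, 309 to 325 on Ing1-/- arrays and 219 to 272 on WT arrays. Against WT, Krt19, Sfn and Pkp1 were called higher in DKO, Sfn and Pkp1 in Gadd45a-/- and none in Ing1-/-. Of these 4 markers 1 was above background on each WT array, 3 to 4 on DKO arrays and 4 on each single knockout array. Markers that passed the filter only through knockout arrays thus count toward the calls. Of 5 endothelial markers only Emcn had a kept probe, and it was called higher in DKO and Ing1-/-. Emcn was not above background on either WT array, so it passed the filter only through knockout arrays. Of 9 dendritic and lymphoid markers 1 had a kept probe and was not called. The part of these cell types in the members' lower signal was not tested, and in cultures measured whole, fewer cells of a type and less RNA per cell cannot be told apart.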

How the data were processed

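Illumina BeadArray profiles of MEFs on 8 arrays, 2 per genotype, were used. Per the file headers, the deposited non-normalized table holds a signal intensity and a detection p-value per probe and array, exported with GenomeStudio 2011.1 per the submitters' processing notes. The authors' processed values, with unstated scale, ranked probes within each array as the intensities did. They had array medians of 8.86 to 8.88, and 34.5% of them were below 0, so they were not taken as log2 values. As an alternative they were raised to a floor of 16, which is above those medians, and then logged. Member genes and gene lists were chosen with earlier results of these data known.

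Intensities were background-corrected, quantile-normalized and logged with neqc of limma 3.58.1 in R 4.3.3 (offset 16) and negative controls that neqc derives from the detection p-values; the filter was a detection p-value under 0.01 on both arrays of any 1 genotype. limma was fitted with 1 mean per genotype over all 8 arrays (4 residual and 3.79 prior degrees of freedom), two-sided, with Benjamini-Hochberg adjustment over all kept probes within each comparison and a threshold of 0.05. The fit was tested on simulated data. For a gene with several kept probes, the brightest stood for it in counts of genes. Values by array are given for members with a called probe and for chosen bright members of each role. Probes not above background on any array of a group gave a lower bound for the fold. The number of arrays limits the precision.

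Alternatives were the scaling, the offset, the authors' values, the filter, the block, eBayes with trend and robust settings, array weights, 1 probe per gene, only the genotypes compared, and leaving out each array.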

Additional observations from a re-analysis of the deposited data

How the results depend on the processing

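Counts are of member probes with an adjusted p under 0.05 in limma. For DKO against WT the count of 14 became 6 with no detection filter and 5 with only the genotypes compared, and ranged from 2 to 12 when 1 array was left out; the other alternatives gave 12 to 15. For Gadd45a-/- against WT the count of 1 became 2 with median scaling and with eBayes trend and robust settings, 0 with the brightest probe per gene and with only the genotypes compared, and 0 to 1 when 1 array was left out. For Ing1-/- against WT the count of 1 became 5 with median scaling, 3 with the trend and robust settings and 2 with the brightest probe per gene. It was 0 with the authors' processed values, no detection filter, the replicate block, array weights, only the genotypes compared, and without any 1 of the arrays. For DKO against Gadd45a-/- it was 0, or 2 with the trend and robust settings. For DKO against Ing1-/- the count of 1 became 0 with median scaling, no detection filter, probes detected on all 8 arrays, the trend and robust settings or the brightest probe per gene, 2 with array weights, and 0 to 2 when 1 array was left out. The interaction gave 0 throughout. Fewer arrays or more probes tested are built into some of these; otherwise the cause was not tested. Deviations of same-numbered arrays correlated at 0.28 between WT and Ing1-/- and at 0.19 between Gadd45a-/- and Ing1-/-, but at -0.09 to 0.08 in the other pairs of genotypes, so not every array correlated best with its own number and the numbers were not taken as pairs. With the replicate block the Ing1-/- call of Shfl was lost (0.0623), the DKO against WT count was 12, and Psmb8 (0.0543), Oasl2 (0.0557) and Samhd1 (0.0692) lost their calls. For the 17 called values, 297 alternatives kept the direction; in 108 the call was lost. Median scaling moved the median of all probes to -0.16 in DKO, -0.09 in Gadd45a-/- and -0.18 in Ing1-/-. Over all alternatives the members' median ranged from -0.74 to -0.52 in DKO, -0.41 to -0.24 in Gadd45a-/- and -0.46 to -0.20 in Ing1-/-; that of the interaction ranged from -0.0045 to 0.23, the lowest without Ing1-/- replicate 1. Low signal limits what can be said of the 17 members with a probe that were not kept.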
